A study of Homo sapiens with 8 samples.

Results

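The genes GAS5, SNHG1, SNHG3, SNHG5, SNHG6, SNHG7, SNHG8, SNHG12, SNHG15 and SNHG16 make long noncoding RNAs and carry small nucleolar RNAs (snoRNAs) in their introns. They were taken by gene name, with earlier results of these data known, and each name matched 1 row, so they are 10 of the 62649 genes in the deposited table. All 10 passed the filter on low values (at least 1 TPM in 2 or more libraries), as did 19122 genes in all. RNA was sequenced from AsPC-1 and PANC-1, both lines derived from human pancreatic cancer with the genotype given as WT. Both lines were grown for 3 days in methylcellulose medium, where cells form spheroids, and then treated for 24 h. Each line gave 1 library with vehicle, 1 with 10 µM roseoflavin, 1 with 1 nM trametinib and 1 with both compounds at these doses. Roseoflavin is a bacterial analogue of riboflavin, and trametinib inhibits the MEK kinases upstream of ERK. No group had a replicate, so a fitted value takes its error from the agreement between lines and between libraries with and without the other compound, and that spread may be partly technical. Each line stands for 1 established culture model and not for pancreatic cancers in general.

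The host RNAs of snoRNAs are spliced, and the introns they release are trimmed to snoRNAs, which guide the methylation and pseudouridylation of ribosomal RNA. Many of them start with a run of pyrimidines like that of the mRNAs of ribosomal proteins (a 5′ terminal oligopyrimidine, or TOP, start), whose translation follows the activity of the mTOR kinase. What remains of the host RNA after splicing has only short reading frames, and when ribosomes engage it, the RNA is degraded by nonsense-mediated decay (NMD). GAS5 was named for its accumulation in growth-arrested cells, in which translation is low.

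Values are in TPM (relative transcript abundance), which are scaled for transcript length and to the same total in every library, so levels can be compared between genes, but the sequencing depth is unknown and no counting interval can be given. Transcripts of the mitochondrial genome made up 41.2% to 44.1% of the total in each AsPC-1 library, but 22.8% to 25.6% in each of PANC-1. Since all libraries have the same total, every other value shifts with that share. The labels were checked against markers of cell types. The summed level of 6 epithelial markers lay between 9167 and 10555 TPM in AsPC-1, against 2709 to 3029 TPM in PANC-1. That of 4 mesenchymal markers lay between 668 and 825 TPM in AsPC-1, against 3155 to 3416 TPM in PANC-1. Nearly all of it was VIM, at 660 to 816 TPM in AsPC-1 and 3132 to 3391 TPM in PANC-1. ZEB1 and CDH2 were also higher in PANC-1, and FN1 stayed under 1 TPM in every library. Of 7 markers of blood, endothelial and fibroblast cells, 5 stayed under 1 TPM in every library, and their defining genes PTPRC and PECAM1 were at 0.006 TPM or less in both vehicle libraries. The other 2 were CD68, at 108 TPM in AsPC-1 vehicle and 125 TPM in PANC-1 vehicle, and COL1A1, at 0.088 and 107 TPM.

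The 5′ ends are shown first because the pyrimidine start is what ties these noncoding RNAs to the translation machinery. A start was counted when the first base of an annotated transcript (GENCODE release 29, GRCh38) was C and at least 3 more pyrimidines followed without a break. Of the 129 transcripts annotated for the 10 genes, 25 (19.4%) had such a start, against 7866 of 206694 transcripts in all (3.81%), 1138 of 27820 transcripts of long noncoding genes (4.09%) and 181 of 833 transcripts of ribosomal protein genes (21.7%). Transcripts of 1 gene share their start sites, so these shares are a description. At least 1 transcript of 9 of the 10 genes had it, and SNHG15 was the exception with 0 of 10 transcripts. The share of all genes with at least 1 such transcript was not counted. A gene with many annotated transcripts has more chances to hold one, so the count of 9 is not set against a background. The first 30 bases of the transcript with the longest run are given for 8 of these 9 genes, with the run in capitals. The sequence of SNHG6, with a run of 7 bases and a start in 3 of 5 transcripts, is not shown. The 8 sequences are ordered by value: in PANC-1 both roseoflavin libraries were above both others for the first 6 genes and below both for the last 2.
GAS5: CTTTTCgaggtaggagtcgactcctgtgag
SNHG1: CTCCTgtctgcaggatttacgcgcacgttg
SNHG5: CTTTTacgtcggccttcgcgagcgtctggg
SNHG7: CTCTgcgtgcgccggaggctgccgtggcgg
SNHG8: CTTTCacattcgggaagcgtcgggattagg
SNHG16: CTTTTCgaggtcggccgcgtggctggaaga
SNHG3: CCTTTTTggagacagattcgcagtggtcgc
SNHG12: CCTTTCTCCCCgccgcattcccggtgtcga

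On GRCh38 these stretches lie at chr1:173867960-173867989 on the minus strand (GAS5), chr11:62855450-62855479 minus (SNHG1), chr6:85678704-85678733 minus (SNHG5), chr9:136728155-136728184 minus (SNHG7), chr4:118278758-118278787 plus (SNHG8), chr17:76557769-76557798 plus (SNHG16), chr1:28506043-28506072 plus (SNHG3) and chr1:28581844-28581873 minus (SNHG12). GAS5 and SNHG16, on different chromosomes, share their first 11 bases, a likeness noticed after the sequences had been listed. SNHG12 has the longest run, of 11 pyrimidines, and SNHG7 the shortest, of 4. A pyrimidine start was thus annotated both for genes with a higher and for genes with a lower level after roseoflavin in PANC-1. It was annotated for 6 of 29 transcripts of GAS5, 1 of 25 of SNHG1, 4 of 23 of SNHG5 and 3 of 4 of SNHG7. For SNHG8, SNHG16, SNHG3 and SNHG12 the shares were 1 of 5, 2 of 8, 1 of 3 and 4 of 17. The stretches of SNHG1, GAS5 and SNHG12 lie the furthest inside their genes. On the minus strand these genes begin at 62855914, 173868882 and 28583132, in this order. The stretch of SNHG1 is also downstream of SNORD25. Which starts these cells use was not tested.

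The reading frames were read from the GENCODE transcript that matches the first RefSeq accession listed for each gene in the deposited table. Among the genes with a printed start, this was the transcript of that start for SNHG5 only. For the others the start and the reading frame come from different annotated transcripts. The frame that opens at the first AUG held between 5 codons (SNHG1) and 64 codons (SNHG7). In GAS5 it opened at base 31 of a 632-base RNA of 12 exons and held 50 codons. In SNHG5 it opened at base 46 of a 430-base RNA of 6 exons and held 35 codons. A splice junction more than 50 bases downstream of the stop codon is the usual mark of an NMD substrate. Such junctions were present in 8 of the 10 transcripts, 5 of the 11 junctions in GAS5 and all 9 in SNHG1, and were absent from the transcripts used for SNHG3 and SNHG7. The annotation places 25 snoRNA entries inside these genes, 7 in SNHG1, 5 in SNHG12, 4 in SNHG7, 3 in SNHG16, 2 in SNHG3 and 1 each in SNHG5, SNHG6, SNHG8 and SNHG15, and lists none inside GAS5. Some are pairs at nearly the same place, SNORA16A in SNHG12, and SNORA17B and SNORA17A (with RF00560) in SNHG7. SNORD50A, named below for SNHG5, is not among the 25. The counts are thus those of this annotation and not a full list of the snoRNAs of these genes.

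GAS5 (ENSG00000234741, chr1:173863900-173868882, minus strand) was the most abundant of the 10 in every library. Its mean was 70.4 ± 5.53 TPM in AsPC-1, against 64.3 ± 9.16 TPM in PANC-1, where the SD, here and below, is over the 4 treatments of a line (n = 4). SNHG1 (ENSG00000255717, chr11:62851988-62855914, minus), the host of a row of C/D box snoRNAs, followed with 54.1 ± 6.48 and 47.3 ± 3.59 TPM. SNHG6 (ENSG00000245910, chr8:66921684-66926398, minus) was at 48.7 ± 3.10 TPM in AsPC-1, within the spread of SNHG1, and at 35.2 ± 1.35 TPM in PANC-1. SNHG8 (ENSG00000269893, chr4:118278709-118279823, plus) was the least abundant in every library, with 8.63 ± 0.726 TPM in AsPC-1, against 4.59 ± 0.375 TPM in PANC-1. SNHG12 (ENSG00000197989, chr1:28578538-28583132, minus) was ninth in every library, with 11.1 ± 1.31 and 10.6 ± 0.516 TPM. In AsPC-1, SNHG15 (15.1 ± 2.16 TPM), SNHG16 (14.8 ± 0.461 TPM) and SNHG5 (13.8 ± 0.881 TPM) lay too close together to be ordered. Summed over the 10 genes the level lay between 267 and 321 TPM in AsPC-1 and 272 and 302 TPM in the PANC-1 libraries, so the ranges of the lines overlapped.

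**Figure D1:**
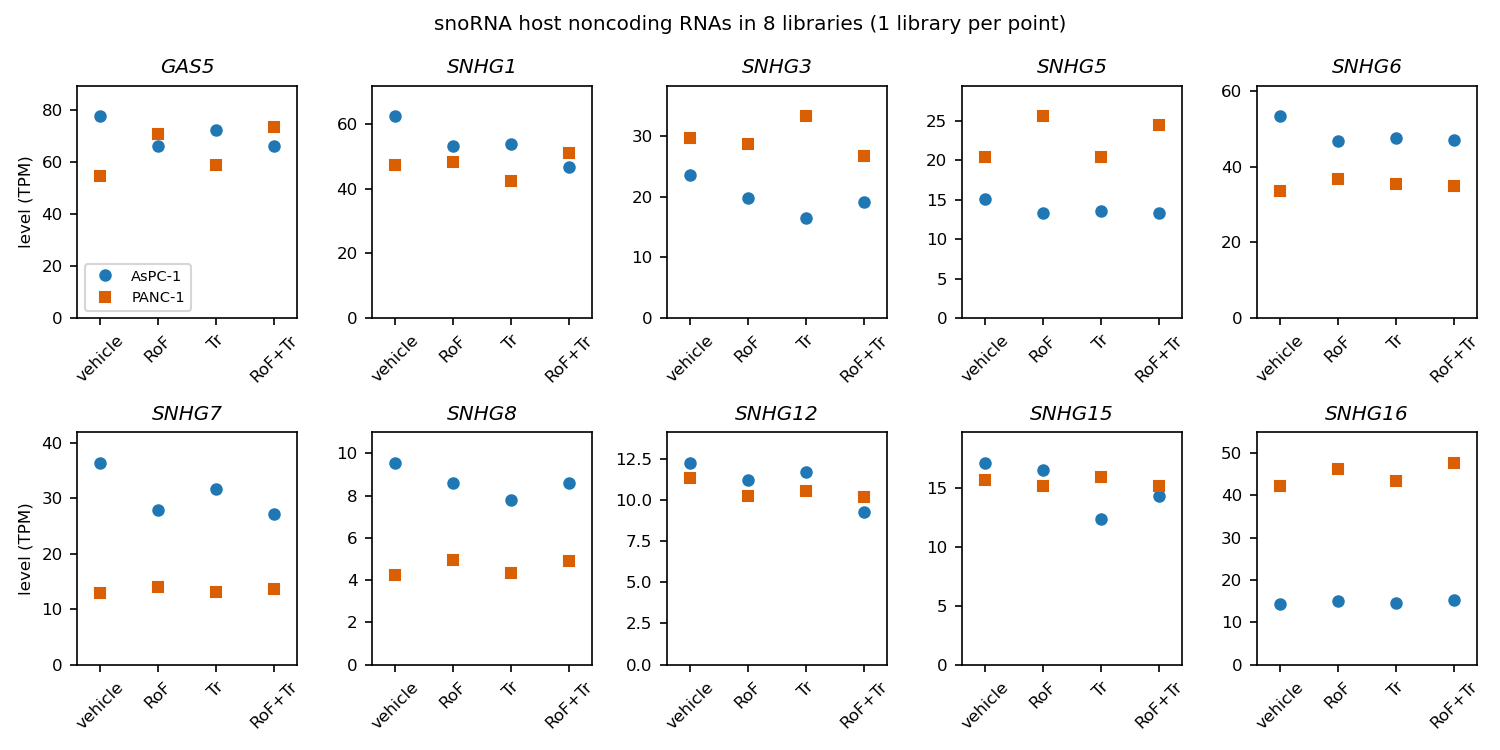
Level in TPM (y axis, linear, from 0) of each of the 10 host RNAs in the 4 treatments (x axis; RoF, roseoflavin; Tr, trametinib), with AsPC-1 as circles and PANC-1 as squares and 1 library per point. SNHG16 was near 15 TPM in AsPC-1 and between 42.1 and 47.7 TPM in PANC-1, SNHG7 had the opposite order, and GAS5 was higher with roseoflavin in PANC-1 and lower with it in AsPC-1.

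The lines were compared with limma on log2(TPM + 1), 4 libraries of PANC-1 against 4 of AsPC-1 with both compounds as additive terms, and p-values were adjusted by Benjamini-Hochberg over all 19122 genes. The libraries of a line come from 1 line, so the p-values cover the spread between libraries of these lines only. Of the 10 genes, 6 passed an adjusted p of 0.05, 3 of them higher in PANC-1 and 3 lower, against 83.8% of all genes, 62.3% higher and 21.5% lower. Of the 10 estimates 4 were above 0, against 71.5% of all genes. All 4 PANC-1 libraries lay above all 4 of AsPC-1 for 3 genes, against 59.4% of all genes, and below them for 3, against 19.8%. The median difference over all genes was 0.55. It was 0.25 after the mitochondrial genes had been removed and the rest rescaled, and 0.04 under quantile normalization. The median over the 10 genes was -0.10 as deposited.

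SNHG16 (ENSG00000163597, chr17:76557766-76565348, plus strand), the host of SNORD1A, SNORD1B and SNORD1C, was the gene most strongly tilted towards PANC-1. It was at 14.3, 15.1, 14.6 and 15.3 TPM in AsPC-1 with vehicle, roseoflavin, trametinib and both, and at 42.1, 46.4, 43.4 and 47.7 TPM in PANC-1 in the same order. The lines did not overlap, and the means differed 3.03-fold. The difference was 1.54 on the log2 scale (SE 0.0344, limma adjusted p 6.12e-08), and it was 1.18 with mitochondrial genes removed and 1.04 under quantile normalization.

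SNHG7 (ENSG00000233016, chr9:136721366-136728184, minus strand), the host of the H/ACA box RNAs SNORA17A and SNORA17B, had the opposite order. It was at 36.4, 27.8, 31.7 and 27.2 TPM in AsPC-1 and at 12.9, 13.9, 13.0 and 13.6 TPM in PANC-1, and every AsPC-1 library was above every PANC-1 library. The difference was -1.14 (SE 0.0875, limma adjusted p 2.07e-05), a mean level 2.30-fold higher in AsPC-1. SNHG8, the host of SNORA24, was likewise lower in PANC-1 (-0.78, SE 0.0713, limma adjusted p 4.98e-05), and so was SNHG6, the host of SNORD87 (-0.46, SE 0.0558, limma adjusted p 0.000240). These 3 genes stayed lower and past the threshold in every alternative that was run on them.

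For the other genes the reading depended on the scaling. SNHG5 (ENSG00000203875, chr6:85660950-85678748, minus), the host of SNORD50A and SNORD50B, was at 13.3 to 15.1 TPM in AsPC-1 and 20.4 to 25.6 TPM in PANC-1, with a difference of 0.67 (SE 0.0864, limma adjusted p 0.000317) that was 0.14 under quantile normalization (adjusted p 0.144). SNHG3 (ENSG00000242125, chr1:28505980-28510892, plus), the host of SNORA73A and SNORA73B, was at 16.5 to 23.5 and 26.8 to 33.3 TPM, with a difference of 0.57 (SE 0.104, limma adjusted p 0.00196) that was 0.05 under quantile normalization (adjusted p 0.661). Both differences were close to the median of all genes. GAS5 (-0.14, limma adjusted p 0.289), SNHG1 (-0.18, 0.0991) and SNHG12 (-0.06, 0.371) did not pass as deposited, but were lower in PANC-1 and past the threshold under quantile normalization (-0.58, -0.64 and -0.60) and without mitochondrial genes (-0.52, -0.57 and -0.43). SNHG1 also passed without the AsPC-1 library that received both compounds (-0.25, limma adjusted p 0.0493) or without that of PANC-1 (-0.28, 0.00736). SNHG15 (ENSG00000232956, chr7:44983023-44986961, minus), the host of SNORA9, was at 0.04 as deposited and at -0.48 (limma adjusted p 0.00155) and -0.33 (0.0120) under these alternatives, so that its direction turned with the scaling and it passed as lower in PANC-1.

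**Figure D2:**
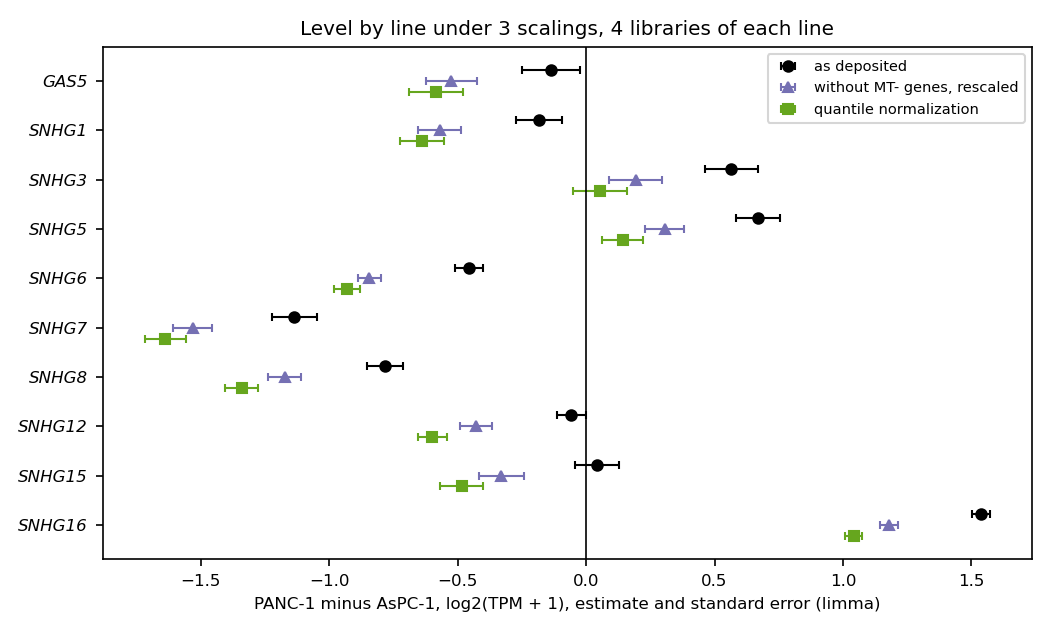
Difference between the lines for each host RNA (x axis, PANC-1 minus AsPC-1 on the log2(TPM + 1) scale), with bars for the limma standard error over 4 libraries of each line. Circles are values as deposited, triangles values without mitochondrial genes and squares values after quantile normalization. SNHG16 lay to the right and SNHG6, SNHG7 and SNHG8 to the left under all 3 scalings, and the circle of every gene lay to the right of its other symbols.

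Neighbours that share exons bear on how far single genes can be read, since the handling of shared reads and of strand is not given in the sources used here. SNHG3 shares 242 exon bases with RCC1 on the same strand, and RCC1 was at 36.1 to 56.0 TPM. SNHG7 shares 1094 exon bases with FAM69B (named DIPK1B in the table; 2.12 to 12.9 TPM) on the opposite strand. SNHG16 shares 1639 with an unnamed gene (ENSG00000284526; 0.254 to 10.1 TPM), and SNHG6 shares 365 with MCMDC2 (0.452 to 1.24 TPM), both on the opposite strand. The unnamed gene was at 0.254 to 0.598 TPM in AsPC-1 and 8.53 to 10.1 TPM in PANC-1, the same order as SNHG16. DIPK1B was also higher in PANC-1, the order opposite to that of SNHG7. The part of shared reads in these differences was not tested. GAS5 shares 42 bases with GAS5-AS1 (0.182 to 2.01 TPM) and SNHG12 shares 8 with TRNAU1AP (7.38 to 14.0 TPM), and the remaining genes shared no exon base with a gene other than snoRNAs.

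The next comparison set the 4 roseoflavin libraries of both lines against the other 4. In limma 0 of the 10 genes passed the adjusted threshold, as did 0% of 19122 genes, and 2 had an unadjusted p under 0.05, against 7.1% of all genes (1358). Of these, SNHG16 was higher, against 2.03% of all genes, and SNHG12 lower, against 5.07%. The median of the 10 was -0.0062, beside -0.02 over all genes, and 5 of 10 estimates were above 0, against 42.2% of all. SNHG16 had the smallest p. Its difference was 0.10 (SE 0.0344, unadjusted p 0.0243, limma adjusted p 0.673), and it was higher with roseoflavin in 4 of 4 matched comparisons. SNHG12 had a difference of -0.15 (SE 0.0569, unadjusted p 0.0346, limma adjusted p 0.674) and was lower in 4 of 4. In the bulk RNA of a spheroid, a smaller number of cells of a kind and less RNA per cell cannot be told apart.

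Within each line, several of the 10 genes had roseoflavin libraries set apart from the others, in opposite directions. In AsPC-1, GAS5 was at 77.5 TPM with vehicle, 65.9 TPM with roseoflavin, 72.05 TPM with trametinib and 66.1 TPM with both. In PANC-1 the same treatments gave 54.5, 70.5, 58.6 and 73.5 TPM. Both roseoflavin libraries were thus below both others in AsPC-1 and above both others in PANC-1. The AsPC-1 changes were -14.9% and -8.31%, and those of PANC-1 were 29.5% and 25.4%, each 1 library against 1.

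SNHG5 followed the same order. In PANC-1 it was at 20.4 TPM with vehicle and 25.6 TPM with roseoflavin, and at 20.4 TPM with trametinib and 24.4 TPM with both, changes of 25.6% and 19.9%. In AsPC-1 it was at 15.1 and 13.3 TPM, and at 13.6 and 13.3 TPM. SNHG1 was at 62.5 and 53.3 TPM in AsPC-1 without trametinib and at 53.9 and 46.6 TPM with it, against 47.4 and 48.3 TPM and 42.5 and 51.2 TPM in PANC-1. SNHG7 was lower with roseoflavin by vehicle comparison in AsPC-1 (36.4 and 27.8 TPM, -23.6%) and higher in PANC-1 (12.9 and 13.9 TPM, 7.92%). For these 4 genes both roseoflavin libraries were below both others in AsPC-1 and above both in PANC-1, as they were for 5.31% of all genes.

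The other genes did not part by line in this way. SNHG8 was at 4.23 and 4.93 TPM in PANC-1 without trametinib and at 4.32 and 4.90 TPM with it, both higher with roseoflavin, and in AsPC-1 it was lower without trametinib (9.56 and 8.58 TPM) and higher with it (7.79 and 8.60 TPM). SNHG6 was at 53.3 TPM with vehicle and 46.7 TPM with roseoflavin in AsPC-1, against 33.6 and 36.8 TPM for PANC-1, and on top of trametinib it differed by -0.975% and -1.11%. SNHG3 was at 29.7, 28.7, 33.3 and 26.8 TPM in PANC-1 with vehicle, roseoflavin, trametinib and both, and at 23.5, 19.9, 16.5 and 19.2 TPM in AsPC-1. SNHG15 lay between 15.2 and 15.9 TPM in the 4 PANC-1 libraries, and between 12.4 and 17.1 TPM in those of AsPC-1.

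Counted over the 10 genes, both roseoflavin libraries were above both others in PANC-1 for 6 genes (GAS5, SNHG1, SNHG5, SNHG7, SNHG8 and SNHG16), against 22.9% of all genes, and below both for 3 (SNHG3, SNHG12 and SNHG15), against 22.7%. In AsPC-1 they were below both others for 6 (GAS5, SNHG1, SNHG5, SNHG6, SNHG7 and SNHG12), against 21.6%, and above both for SNHG16 alone, against 10.6%. The PANC-1 count of higher genes was 6 under quantile normalization, against 22.7% of all genes, and 5 without mitochondrial genes, against 16.5%. The AsPC-1 count of lower genes was 2 under the first alternative (GAS5 and SNHG7), against 13.8% of all genes, and 3 under the second (with SNHG12), against 18.5%, so that it was near the share of all genes. These alternatives were added to this count after the data had been seen. The mitochondrial share in AsPC-1 was 44.1% with roseoflavin and 41.2% with vehicle, but 41.3% with both compounds and 42.2% with trametinib alone.

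The AsPC-1 vehicle library moved with these differences. It held the highest AsPC-1 value of 9 of the 10 genes, all but SNHG16, against 28.2% of all genes. Against vehicle, 9 of 10 genes were lower with roseoflavin in AsPC-1 (median -0.18, beside -0.05 over all genes), and on top of trametinib, where that library is not used, 6 of 10 were lower (median -0.02, beside -0.0048). In PANC-1 the same medians were 0.12 and 0.10, beside 0 and 0 over all genes. The part of the AsPC-1 vehicle library in the AsPC-1 differences was not tested further.

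**Figure D3:**
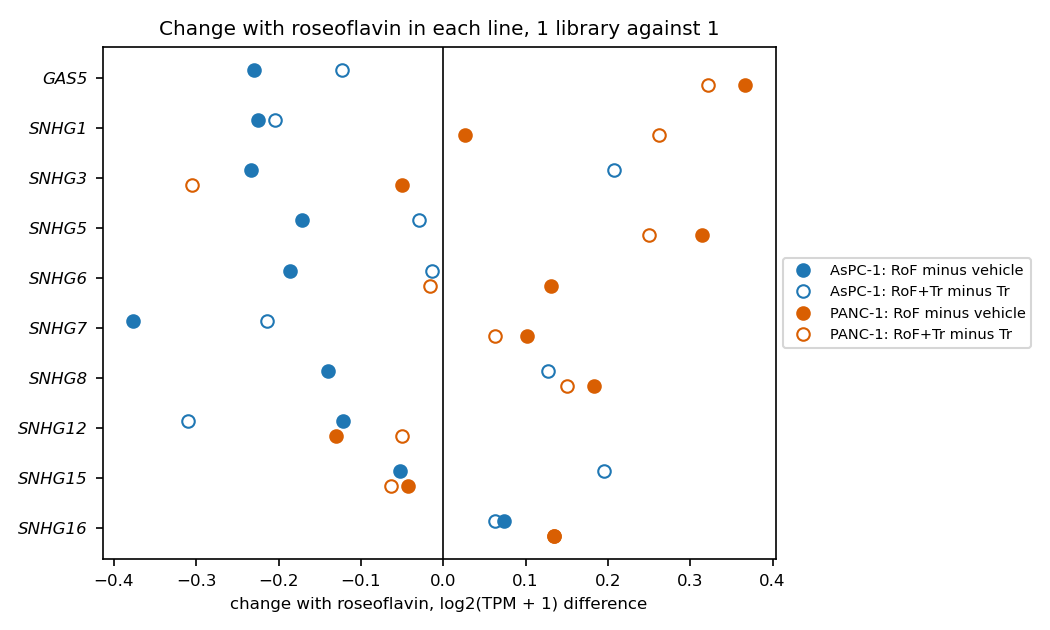
Change with roseoflavin for each host RNA (x axis, difference of log2(TPM + 1) between 1 library and 1 library) in AsPC-1 (blue) and PANC-1 (orange), without trametinib (filled) and on top of it (open). For GAS5, SNHG1, SNHG5 and SNHG7 both blue points lay left of 0 and both orange points right of it, from -0.23 to 0.37 for GAS5. The open PANC-1 point of SNHG16 lies behind the filled one.

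Whether the lines differed in their response was tested in limma by subtracting the AsPC-1 change from that of PANC-1, with terms for line by roseoflavin and line by trametinib and 2 residual degrees of freedom. For roseoflavin 0 of the 10 genes and 0% of all genes passed the adjusted threshold. At an unadjusted p under 0.05 there were 4 of the 10 genes, all positive, against 8.11% of all genes positive and 3.54% negative (2227 in all). The 4 were GAS5 (0.52, SE 0.0641, unadjusted p 0.00140, limma adjusted p 0.330), SNHG5 (0.38, SE 0.0814, 0.00990, adjusted p 0.351), SNHG7 (0.38, SE 0.0832, 0.0111, adjusted p 0.357) and SNHG1 (0.36, SE 0.0986, 0.0231, adjusted p 0.378). Leaving out any single library kept GAS5 between 0.47 and 0.57, and over all 14 alternatives it lay between 0.46 and 0.57 with adjusted p from 0.147 to 0.583. The difference was positive in 8 of the 10 genes (57.9% of all genes), and the median over the 10 was 0.17, beside 0.04. That median was 0.12 under quantile normalization and 0.11 without mitochondrial genes, beside -0.0064 and -0.01. In simulated data this test recovered 0% of genes changed by 0.5 or by 1 on the log2 scale. The simulated noise came from the fit without terms for line by compound, so it also held differences in response between the lines. The simulation thus does not give the recovery of this test in these data. A count of 0 is not read as the absence of a difference.

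Trametinib was compared in the same way. Over both lines 0 of the 10 genes and 0% of all genes passed in limma, and 0 of the 10 had an unadjusted p under 0.05, against 4.91% of all genes (938; 3.12% higher and 1.78% lower). The estimate was above 0 in 2 of the 10, against 59% of all genes, and below 0 in 8, with a median of -0.06, beside 0.02 over all genes. SNHG3 and SNHG15 had the largest differences from vehicle among the 10 in AsPC-1, with 23.5 and 16.5 TPM (-29.9%) for SNHG3 and 17.1 and 12.4 TPM (-27.7%) for SNHG15. On top of roseoflavin SNHG3 was at 19.9 and 19.2 TPM and SNHG15 at 16.5 and 14.3 TPM. In these 2 genes both trametinib libraries were below both others, against 13.3% of all genes, and 0 genes had both above, against 24%. The lower count was 7 under quantile normalization and 6 without mitochondrial genes, against 16.6% of all genes under either. In PANC-1, 0 of the 10 genes had both trametinib libraries above or below both others, against 16.1% and 11.6% of all genes. The test of a difference between lines gave 0 adjusted calls (0% of all genes) and 1 of the 10 at an unadjusted p under 0.05, against 9.7% of all genes (1854; 3.68% positive and 6.01% negative). It was SNHG15 (0.33, SE 0.108, unadjusted p 0.0406, limma adjusted p 0.514). All 10 differences were above 0, against 46.8% of all genes, and each of the 10 rests in part on the AsPC-1 vehicle library named above.

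The combination was set against vehicle in each line, 1 library against 1 and with no test, among the 9 of the 10 genes whose mean reached 10 TPM (SNHG8 did not). A difference of 0.32 on the log2(TPM + 1) scale was passed in AsPC-1 by SNHG1, SNHG7 and SNHG12, all lower, against 6.66% of 9368 genes lower. With vehicle and with both, SNHG1 was at 62.5 and 46.6 TPM, SNHG7 at 36.4 and 27.2 TPM and SNHG12 at 12.3 and 9.24 TPM. In PANC-1 only GAS5 passed it, going from 54.5 to 73.5 TPM, against 3.5% of genes higher. With roseoflavin alone 1 gene passed in each line, SNHG7 lower in AsPC-1 (5.98% of genes lower, 1.08% higher) and GAS5 higher in PANC-1 (2.56% higher). With trametinib alone SNHG3 and SNHG15 passed in AsPC-1, both lower (5.54% of genes lower, 9.07% in either direction), and 0 of 9 passed in PANC-1, against 3.66%. These comparisons share the vehicle library of the line.

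Other noncoding hosts of snoRNAs, 18 genes, did not move as 1 group. In the roseoflavin difference between lines their median was -0.12, beside 0.04 over all genes. Of the 18, 7 were positive, against 57.9% of all genes, and 0 passed in limma. At an unadjusted p under 0.05 there were 5, 4 of them positive, against 8.11% of all genes positive and 3.54% negative. Some of the 18 had low values, whose changes log2(TPM + 1) understates, and their part in the median was not tested. Examples are SNHG22, SNHG26 and SNHG14, with means of 0.69, 0.79 and 1.08 TPM over the 8 libraries. SNHG14 was at 0 TPM in every AsPC-1 library. The 11 genes below 0 also included SNHG4, at 12.4 to 17.4 TPM over the 8 libraries. With vehicle and roseoflavin SNHG4 was at 17.1 and 17.4 TPM in AsPC-1, and 16.2 and 13.7 TPM for PANC-1. ZFAS1, the host of SNORD12 family RNAs, had the largest of the 3 with the smallest p. With vehicle and roseoflavin it was at 40.4 and 34.6 TPM in AsPC-1, and 24.8 and 32.4 TPM for PANC-1 (0.55, SE 0.0726, limma adjusted p 0.336). EPB41L4A-AS1 (0.43) was at 19.4 and 16.7 TPM in the AsPC-1 pair and 8.09 and 9.62 TPM in the PANC-1 pair, and SNHG29 (0.29) at 128 and 121 TPM and then 69.6 and 84.1 TPM. Over both lines, SNHG21 had the smallest p for roseoflavin in this list (-0.19, SE 0.0654, limma adjusted p 0.674).

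Protein-coding hosts of snoRNAs, mostly ribosomal protein genes, had a median difference between lines of 0.13 with roseoflavin, beside 0.04 over all genes. Of the 28, 25 were positive, 0 passed in limma and 7 had an unadjusted p under 0.05, all positive. Over all genes 57.9% were positive. At an unadjusted p under 0.05, 8.11% of all genes were positive and 3.54% negative. The median was 0.06 under quantile normalization, beside -0.0064 over all genes. EIF4A2, which encodes an RNA helicase of translation initiation, was at 129 and 104 TPM with vehicle and roseoflavin in AsPC-1, and 169.9 and 175 TPM for PANC-1 (0.41, SE 0.0573, limma adjusted p 0.336). RPL10, which encodes a protein of the large ribosomal subunit, was at 593 and 558 TPM, and 449 and 532 TPM in the same order (0.26, SE 0.0600, limma adjusted p 0.357). The 16 translation factors and other proteins with TOP mRNAs had a median of 0.14, with 15 positive, 0 passing in limma and 3 at an unadjusted p under 0.05, all positive (EIF4B at 0.26, EEF1A1 at 0.20 and EIF3H at 0.16). The median of that list was likewise 0.06 under quantile normalization, beside -0.0064 over all genes.

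The 19 factors of the NMD pathway had a median difference between lines of 0.0081 with roseoflavin, beside 0.04 over all genes. Of the 19, 10 were positive, against 57.9% of all genes, and 0 passed in limma. An unadjusted p under 0.05 was reached by 11.6% of all genes and by 1 of the 19. That gene was RBM8A, a subunit of the exon junction complex, at 54.1 and 58.3 TPM in AsPC-1 against 104 and 100.9 TPM for PANC-1 with vehicle and roseoflavin (-0.18, SE 0.0565, limma adjusted p 0.398). UPF1, the helicase at the centre of NMD, was at 23.3 and 23.8 TPM and at 33.9 and 30.3 TPM (-0.20, SE 0.0741, limma adjusted p 0.433). Protein-coding mRNAs known as NMD substrates, 10 genes of which several also belong to the integrated stress response, gave 0.34 as their median. Of the 10, 8 were positive, 0 passed in limma and 7 had an unadjusted p under 0.05, all positive, against 8.11% of all genes positive. The 2 below 0 were GADD45A and MAP3K14. With vehicle and roseoflavin MAP3K14 was at 2.32 and 1.81 TPM in AsPC-1, and 25.8 and 22.2 TPM for PANC-1. The part of the stress response genes in the median was not tested. The 3 of the 10 with the smallest p were DDIT3 (1.19, SE 0.0578, limma adjusted p 0.221), ASNS, which makes asparagine (0.70, SE 0.0515, limma adjusted p 0.282), and ATF4, the factor that drives both (0.38, SE 0.0583, limma adjusted p 0.336). With vehicle and roseoflavin ATF4 was at 239.6 and 220.3 TPM in AsPC-1, and 236 and 269.5 TPM for PANC-1. These lists, like the 10 genes, were set with earlier results in view, and their medians carry no test. The 17 proteins that bind snoRNAs or assemble their particles had a median of -0.05, with 6 positive, against 57.9% of all genes, and 0 passing. At an unadjusted p under 0.05 there were 2, both negative (NOLC1 at -0.26 and NOP58 at -0.17), against 3.54% of all genes negative.

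**Figure D4:**
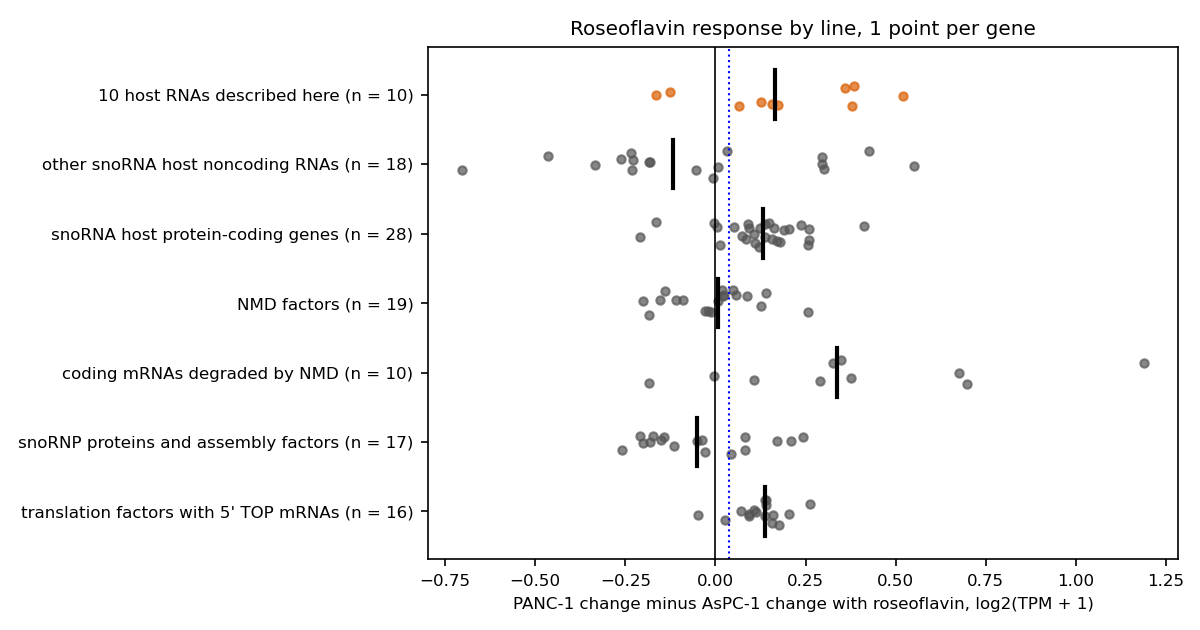
Difference between lines in the roseoflavin response (x axis, change in PANC-1 less that in AsPC-1, log2(TPM + 1) scale) with 1 point per gene, in the 10 host RNAs (orange) and 6 lists of related genes (grey). Black bars are medians and the dotted line is the median of all genes, 0.04. The median was 0.17 for the 10 host RNAs, 0.34 for NMD-sensitive coding mRNAs and -0.12 for the other noncoding hosts. Several of those coding mRNAs also belong to the integrated stress response, and several of the other noncoding hosts had low values.

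The snoRNAs inside the hosts had entries of their own. All 25 snoRNA entries annotated within the 10 hosts were in the table and 24 reached 1 TPM in every library. However, only 3 of the 25 are free of overlap with an annotated exon of their host, mRNA kits select polyadenylated RNA, and 2 entries for SNORA16A at the same place had nearly the same values (15.4 and 15.1 TPM in AsPC-1 vehicle), so these entries are read as positions within the host locus and not as mature snoRNAs. Of 24 entries of the list that passed the filter, 21 were lower with roseoflavin over both lines and 3 were above 0, against 42.2% of all genes above 0. SNORA16A and SNORA17B each count as 2 of the 24, with nearly the same values. The median was -0.21, beside -0.02 over all genes, and 0 passed in limma. At an unadjusted p under 0.05 there were 3, all lower, against 5.07% of all genes lower. Trametinib gave nearly the same for these entries, with 20 of 24 lower and 4 above 0, against 59% of all genes above 0. The median was -0.21, beside 0.02 over all genes, and 0 passed in limma. At an unadjusted p under 0.05 there were 3, all lower, against 1.78% of all genes lower. SNORD25, inside SNHG1 at chr11:62855564-62855632 on the minus strand, had the smallest p for roseoflavin. It was at 98.8, 57.6, 82.2 and 57.4 TPM in AsPC-1 with vehicle, roseoflavin, trametinib and both, and at 105, 67.5, 76.9 and 68.7 TPM in PANC-1. The 4 roseoflavin libraries did not overlap with the 4 others (-0.52, SE 0.0949, unadjusted p 0.00135, limma adjusted p 0.595). SNHG1 itself was lower with roseoflavin in AsPC-1 only.

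The genes most like the 10 hosts were ranked by Pearson's r over the 8 libraries between the mean line-centred log2 level of the 10 hosts and that of each of 8621 named genes whose mean reached 10 TPM. The highest were GRK2 (r = 0.974), FOXD1 (0.969), IER5L (0.965), INPP5D (0.960) and NIBAN2 (0.960). INPP5D reached that mean through AsPC-1 alone (23.3 to 26.9 TPM) and was at 0.033 to 0.119 TPM in PANC-1, so its likeness there rests on values near 0. The 8 libraries share 2 lines and a common total, and the top of 8621 ranked genes is high by selection, so r is given as a description only. GRK2 was at 46.5, 43.1, 41.0 and 40.1 TPM in AsPC-1 and at 43.1, 46.2, 43.8 and 46.8 TPM in PANC-1, highest with vehicle in AsPC-1 and higher with roseoflavin in PANC-1, as GAS5 was.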

How the data were processed

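RNA from 8 libraries was sequenced by the submitters. Per the labels' protocols, a stranded mRNA kit was used, a kind that selects polyadenylated RNA. Per the submitters' processing notes, STAR 2.7.3a, HTSeq 2.0.2 and build hg38 were used, with no role or order given; the annotation, the strand setting and the step to TPM are not given in the sources used here. The authors deposited 1 table of TPM, named as such per the file headers. It holds 62649 genes and 985926 blank rows, which were dropped.

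Levels were analysed as log2(TPM + 1), which understates changes of low genes, keeping a gene if 2 or more libraries reached 1 TPM. The tool was limma 3.58.1 under R 4.3.3 (trend in the prior variance) over all 19122 genes, with a Benjamini-Hochberg threshold of 0.05. On simulated data, the roseoflavin effect recovered 77% of genes changed by 0.5 (log2) among 19122, and the difference between lines in the response recovered 0%. The noise for both came from the fit without terms for line by compound, which can overstate it for the difference between lines. The genes, the lists of related genes and the tests were chosen with earlier results of these data known. The genes named were the 10 hosts, per list the 3 with the smallest p for the roseoflavin effect or the difference between lines (a selection of them is printed), exon-sharing genes and the 5 genes most alike. GENCODE release 29 (GRCh38) supplied sequences and coordinates through the Ensembl identifiers. The alternatives tried were quantile normalization, removal of mitochondrial genes, no filter, a mean of at least 10 TPM, a pseudocount of 0.1, no term for the line, leaving out each library and, added after the data had been seen, a model with 1 interaction term and other scalings of the counts of genes set apart within a line.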

Additional observations from a re-analysis of the deposited data

Results flagged for a closer look

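The host RNAs GAS5, SNHG1, SNHG5, SNHG7 and SNHG15 are listed because both matched comparisons went one way in AsPC-1 and the other way in PANC-1. For roseoflavin the change in PANC-1 exceeded that in AsPC-1 by 0.52 for GAS5, 0.36 for SNHG1, 0.38 for SNHG5 and 0.38 for SNHG7, and for trametinib by 0.33 for SNHG15. The difference itself was tested in limma, and none of the 5 passed (adjusted p 0.330, 0.378, 0.351, 0.357 and 0.514 in the same order). For SNHG15 the PANC-1 changes were 0.02 and 0.0016 on the log2 scale, so that its listing rests on AsPC-1.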

How the results depend on the processing

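Without replicates and without known depth, the precision of a single value cannot be given. The count of genes that differed between the lines was 8388 among genes with a mean of 10 TPM or more, since fewer genes were tested, and the split of 11917 higher and 4110 lower was 7963 and 7177 under quantile normalization and 9488 and 5891 without mitochondrial genes. The test of roseoflavin by line gave 5 genes past the threshold with 1 interaction term, against 0 with both, and none of the 5 was a host RNA (limma adjusted p for GAS5 0.254); the trametinib count stayed at 0. Genes past 0.32 against vehicle (roseoflavin, trametinib, both) numbered 661, 850 and 839 in AsPC-1, against 421, 343 and 560 for PANC-1. With the wider filter of 1 TPM they were 2827, 2982 and 3055, and 2432, 2340 and 2810. At 1.5-fold they were 173, 195 and 232, and 119, 120 and 175. Leaving out 1 library turned small estimates, none of which had passed: for roseoflavin SNHG15 lay between -0.078 and 0.068, GAS5 between -0.0033 and 0.18, SNHG6 between -0.069 and 0.029 and SNHG1 between -0.13 and 0.033. For trametinib GAS5 lay between -0.072 and 0.11 (-0.0036 without mitochondrial genes), SNHG5 between -0.12 and 0.016, SNHG7 between -0.13 and 0.018, SNHG6 between -0.084 and 0.014 and SNHG8 between -0.10 and 0.011. Between lines SNHG15 lay between -0.044 and 0.099 (-0.48 under quantile normalization and -0.33 without mitochondrial genes, both past the threshold). In the difference between lines, SNHG3 lay between -0.38 and 0.056 for roseoflavin, and for trametinib SNHG5 lay between -0.027 and 0.11 and SNHG6 between -0.012 and 0.16. Beyond the differences tied to scaling, the cause was not tested. No paired analysis was possible because the labels carry no replicate numbers and each group has 1 library.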
